A study of Mus musculus with 2 samples.

Results

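The constitutive proteasome subunit genes were described from maps of H3K4me3, the trimethylation of lysine 4 on histone H3 that sits around the starts of active genes, in mouse macrophages. The members were the protein-coding genes of GENCODE M21 whose symbol is Psma, Psmb, Psmc or Psmd followed by a number, without the interferon-inducible Psmb8, Psmb9 and Psmb10. The rule found 36 of 21938 protein-coding genes, 16 of the core particle and 20 of the regulatory particle. The measurement was a ChIP-seq of unstimulated bone marrow-derived macrophages (BMDM), primary cells of C57BL/6J mice in which no allele or agent is listed. The 1 group holds 2 biological replicates, entered as separate biosamples of a shared donor entry, with the age unknown or not collected and the sex not collected. Each library was begun with 10 ng of DNA. Nothing in the labels says that the biosamples came from separate animals, so the difference between replicates may be technical. No treatment or other cell type was measured, and no statistical test was run on these genes: counts and medians stand beside those of all protein-coding genes.

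The proteasome is the protease that degrades proteins tagged with ubiquitin. Its core particle is a barrel of alpha and beta rings that encloses the cutting sites, and its regulatory particle has a base with a ring of ATPases that unfolds the substrate and a lid that removes the ubiquitin chain. Macrophages use it to turn over signalling proteins, such as inhibitors of NF-kappaB, and to cut peptides for presentation on MHC class I. Psma genes encode the alpha ring, Psmb genes the beta ring, Psmc genes the ATPases, and Psmd genes the remaining regulatory subunits with 3 chaperones of base assembly.

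A gene was called marked when a peak overlapped the 1000 bp on either side of any of its annotated starts. Its domain was the widest run of peaks there, with peaks within 1000 bp of each other joined, and its fold was the highest value that the authors' caller gave to a peak there. The lists of both replicates differed in size, with 20031 peaks covering 25.5 Mb in replicate 1 and 16376 covering 17.8 Mb in replicate 2. The highest fold was 69.9 in replicate 1 and 35.1 in replicate 2, so folds were compared as percentiles within a list (the percent of its peaks at or below the value). Of 8 macrophage marker genes, among them Csf1r and Spi1, 8 were marked in both replicates, and of 15 marker genes of T cells, B cells, neutrophils and fibroblasts none was marked in either. The peaks come from many cells at once, so a share of cells that carries the mark and the amount of it per cell cannot be told apart.

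The sequences upstream of several members are shown first, because they lie beside the marked starts and hold letters that proteasome promoters are known for. The antioxidant response element core, TGACNNNGC, is bound by Nfe2l1, the factor that raises proteasome gene expression when proteasome activity falls, and CCGGAAG is the core bound by ETS factors. Of the 36 members 29 had a usable promoter window in the RefSeq table (build GRCm38.p6, 250 bases before to 50 bases after the start), and 28 of these were marked in both replicates. Psma8, Psmb1, Psmb2, Psmb7, Psmc3, Psmd3 and Psmd7 had no usable entry, which had to lie within 1000 bp of an annotated start. Each stretch below lies upstream of the RefSeq start and outside every GENCODE exon, is written 5′ to 3′ on the strand of its gene, and has the matched letters of either motif, on either strand, in capitals. They are a selection that keeps clear of exons. They lie at chr14:54618023-54618102 (minus strand) for Psmb5, chr11:70525288-70525356 (plus) for Psmb6, chr5:123228099-123228189 (plus) for Psmd9 and chr11:107479278-107479349 (plus) for Psmd12, each with an antioxidant response element core. Psmc6, at chr14:45329574-45329787 (plus), holds both motifs. Psmd2 at chr16:20651566-20651651 (plus), Psmd4 at chr3:95042673-95042799 (minus) and Psmd11 at chr11:80428544-80428614 (plus) hold the ETS core.
Psmb5: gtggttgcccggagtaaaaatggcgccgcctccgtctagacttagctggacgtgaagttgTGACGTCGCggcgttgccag
Psmb6: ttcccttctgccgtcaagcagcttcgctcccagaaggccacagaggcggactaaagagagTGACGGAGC
Psmd9: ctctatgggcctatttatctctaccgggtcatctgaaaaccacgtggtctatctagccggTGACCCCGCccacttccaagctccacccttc
Psmd12: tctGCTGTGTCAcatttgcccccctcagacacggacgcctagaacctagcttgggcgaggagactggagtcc
Psmc6: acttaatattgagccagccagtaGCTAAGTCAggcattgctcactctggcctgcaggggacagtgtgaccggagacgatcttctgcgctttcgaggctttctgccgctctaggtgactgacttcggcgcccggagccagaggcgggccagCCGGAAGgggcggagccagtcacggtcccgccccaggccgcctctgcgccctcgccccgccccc
Psmd2: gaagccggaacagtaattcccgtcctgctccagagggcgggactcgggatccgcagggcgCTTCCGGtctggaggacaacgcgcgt
Psmd4: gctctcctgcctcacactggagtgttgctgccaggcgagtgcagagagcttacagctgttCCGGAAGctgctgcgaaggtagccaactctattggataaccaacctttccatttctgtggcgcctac
Psmd11: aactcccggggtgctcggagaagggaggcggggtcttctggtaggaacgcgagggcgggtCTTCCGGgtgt

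In Psmb5 and Psmb6, which encode catalytic subunits of the beta ring, and in Psmd2, Psmd4, Psmd9 and Psmd12, every base of the printed stretch lay inside a peak in both replicates. The Psmc6 stretch was different: of its 214 bases 74 lay in a peak of replicate 1 and 0 in a peak of replicate 2. At Psmd11, 52 of 71 bases lay in a peak of replicate 1 and 0 in one of replicate 2.

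Most of the motifs searched were about as frequent at these genes as at marked promoters in general. The antioxidant response element core was in 5 of 28 member windows (17.9%), those of Psmb5, Psmb6, Psmc6, Psmd9 and Psmd12, against 14.9% of 8576 windows of genes marked in both replicates and 13.3% of all 16358 windows. The ETS core was in 9 of 28 (32.1%), against 20.8% of marked and 12.4% of all windows. These were Psmc1, Psmc2, Psmc6, Psmd2, Psmd4, Psmd6, Psmd11, Psmd12 and Psmd13, all of the regulatory particle. Most of the 28 windows were of that particle. Psma8, Psmb1, Psmb2 and Psmb7 of the core could not be searched, nor could Psmc3, Psmd3 and Psmd7 of the regulatory particle. The split between particles was not tested. CCAAT, the letters bound by NF-Y, was in 11 (39.3% against 39.5% of marked windows), and the GC box GGGCGG was in 18 (64.3% against 66.2%). TATAAA was in 3, Psmb4, Psmd1 and Psmd6 (10.7% against 6.3%). GCGCATGC, read by nuclear respiratory factor 1, was in 2, Psma2 and Psmc5 (7.14% against 6.01%). TGACGTCA and ACTACAATT, the letters of the CRE and of Zfp143, were in 0 of 28 member windows, against 3.43% and 0.898% of marked windows. All letters were searched on both strands, and matches of different motifs could overlap. A match is a description of letters only.

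The mark was present at nearly every member. In both replicates 34 of 36 members were marked (94.4%), compared with 49.5% of all protein-coding genes and 80.5% of those in the highest tertile by CpG ratio (observed over expected CpG within 1000 bp of the 5′ end). Of the members, 21 of 36 (58.3%) fell in that highest tertile. Psma6, Psmd5 and Psmd9, with ratios of 0.199, 0.321 and 0.222, did not. Their marked starts lie 14573, 4035 and 58845 bp from the 5′ end, so these ratios do not describe the marked promoters. Marking covered 14 of 16 core particle genes and 20 of 20 regulatory particle genes. Replicate 1 marked 35 members (97.2%, against 53.5% of coding genes) and replicate 2 marked 34 (94.4%, against 49.5%).

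The 2 members without the mark in both replicates are the tissue-restricted ones. Psma8 encodes an alpha subunit of the testis. It was marked in replicate 1 and in the authors' pooled list of both replicates, but not in replicate 2. In replicate 1 it had a peak of 700 bp with a fold of 6.66, which 19.8% of that list's peaks did not exceed, and in replicate 2 the nearest peak lay 22606 bp from its starts. Psmb11, at chr14:54621433-54629556 in mm10 (ENSMUSG00000072423.5), encodes the catalytic beta subunit of the thymus. It had no promoter peak in either replicate. Its 5′ end lies 3411 bp from that of Psmb5, which points the other way, and the nearest peaks to its starts, 3097 bp away in replicate 1 and 3227 bp in replicate 2, were those of Psmb5.

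**Figure D1:**
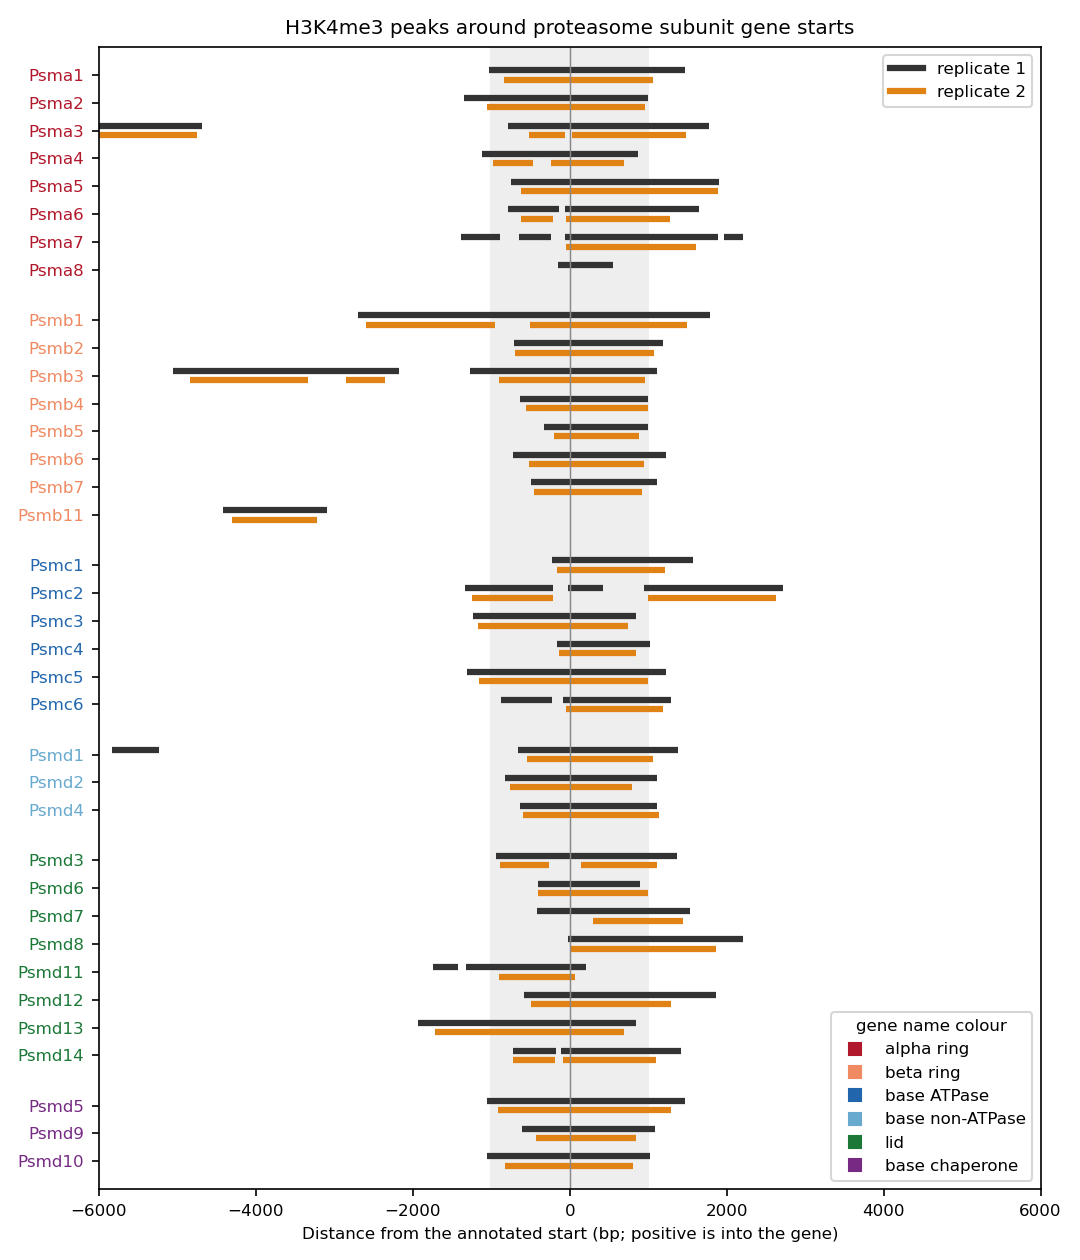
H3K4me3 peaks of replicate 1 (dark bars) and replicate 2 (orange bars) within 6000 bp of 1 annotated start of each of the 36 genes, with the distance in bp on the horizontal axis, oriented so that positive values lie in the gene, and the 1000 bp window shaded. The start is the one nearest the strongest peak of replicate 1. Psma8 has a bar in replicate 1 only, the bars in the Psmb11 row lie outside its window, and the strongest bar of Psmc2 begins 942 bp into the gene in replicate 1.

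The promoters of the complex were strongly enriched. The strongest promoter peak had a median fold of 52.3 in replicate 1, at the percentile of 94.2, and of 21.4 in replicate 2, at the percentile of 92.8. For all 10869 marked coding genes the medians were 38.9 (percentile 75.8) and 14.9 (percentile 69.9). Among marked genes ranked by fold, 31 of 34 members (91.2%) were above the median in both replicates, against 46.4% of all marked genes. Above the percentile of 75 in both replicates, called high-fold genes here, were 23 of 34 members (67.6%), against 21.2% of all marked genes and 21.6% of marked genes in the highest tertile by CpG ratio. Above the percentile of 90 in both were 11 of 34 (32.4%, against 7.54%). The percentiles of 75 and 90 were chosen after the folds had been seen.

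Width did not follow. The median domain of the 34 marked members was 2119.5 bp in replicate 1 and 1703 bp in replicate 2, next to 2149 and 1741 bp over all marked coding genes. Wider than the median in both replicates were 14 of 34 (41.2%, against 43.8%), and narrower in both were 15 (44.1%, against 43.8%). Above the percentile of 75 of width in both replicates was 1 of 34 members, Psmb1 (2.94%, against 20.2%). The high-fold members had a median width of 1990.5 bp (mean of the replicates, n = 23 genes), and the other 2285 high-fold genes had 2300 bp. The 2 sets differed in neighbours: another coding start lay in the window of 26.1% of these members and 41.0% of the other high-fold genes. Marked genes with such a neighbour were wider in general (2299.75 against 1812.5 bp). High in fold and narrower than the median in both replicates were 8 of 34 (23.5%, against 5.70%): Psmb4, Psmb6, Psmb7, Psmc4, Psmd1, Psmd2, Psmd6 and Psmd9. Within the high-fold genes the shares were closer, 8 of 23 members (34.8%) against 26.8% of the other 2285.

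**Figure D2:**
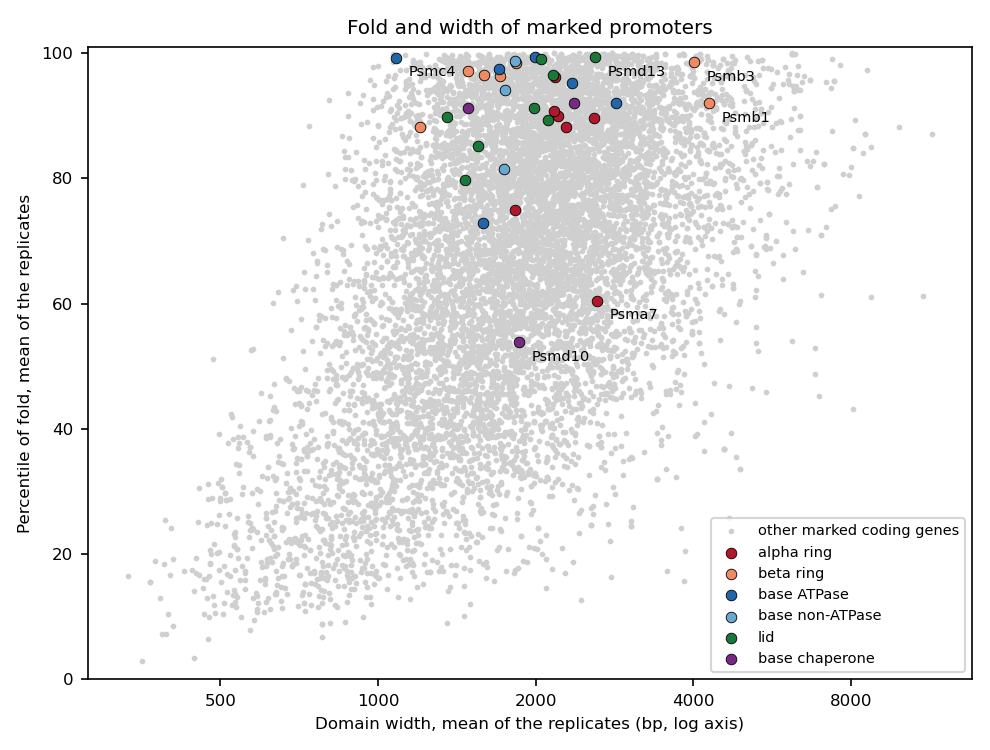
Percentile of fold against domain width on a log axis in bp, both as means of the replicates, for marked coding genes (grey) and the 34 marked proteasome genes, coloured by subunit class. The coloured points sit mostly near the top of the plot and around 2000 bp, with Psma7 at a percentile of 60.5 and Psmd10 at 53.8 below the rest.

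**Figure D3:**
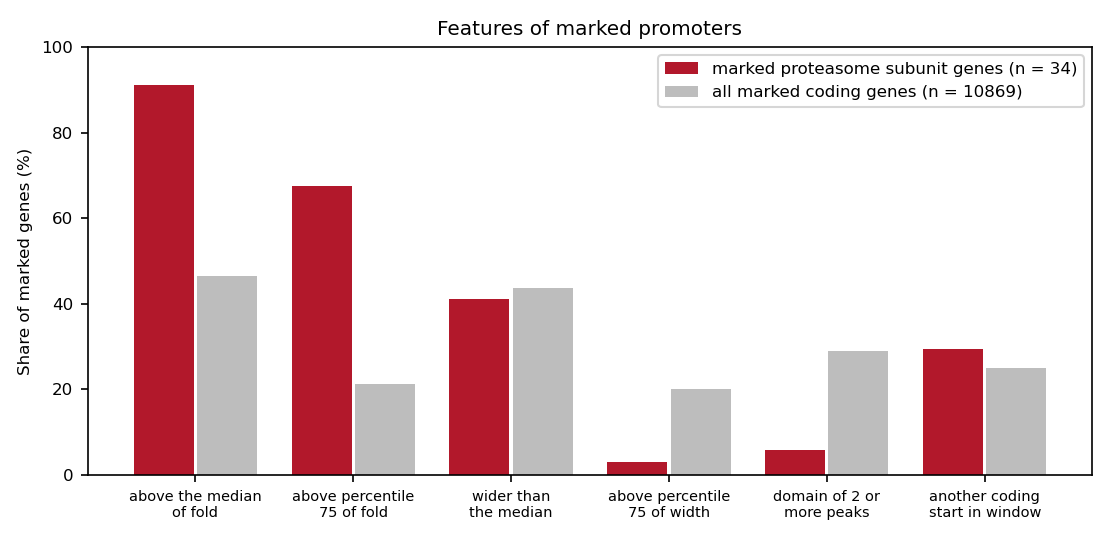
Share of the 34 marked proteasome genes (red bars) and of the 10869 marked coding genes (grey bars) that meet each feature named below the bars, in percent. The first 5 features had to be met in both replicates, and the last is a property of the annotation. The red bar for the percentile of 75 of fold stands at 67.6% against 21.2%, and that for the percentile of 75 of width at 2.94% against 20.2%.

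Across members, fold and width were nearly unrelated in order, with a Spearman's rho of 0.04 in replicate 1 and 0.16 in replicate 2 (n = 34 genes). Over all 10869 marked genes rho was 0.40 and 0.48. These are descriptions across genes of the same 2 libraries, and genes are not independent replicates. The members' folds also span a narrower range. Ranked among marked genes, their quartiles were at percentiles of 74.2 and 93.7 in replicate 1 and 78.0 and 94.5 in replicate 2. A narrower range can lower rho by itself, so the rhos of members and of all marked genes are not like for like. Its effect was not tested. The replicates ranked the members alike, with a rho of 0.82 for fold and 0.74 for width, and 33 of 34 domains were wider in replicate 1 (97.1%, against 98.7% of all marked genes). The exception was Psmd6, with 1308 bp in replicate 1 and 1399 bp in replicate 2.

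Within the core particle, the alpha ring genes had wider and the beta ring genes stronger promoters by their medians, and their ranges overlapped. The 7 marked alpha ring genes had a median width of 2209 bp (1829 to 2621 bp, means of the replicates) and a median percentile of fold of 89.7 (60.5 to 96.2). The 7 marked beta ring genes had 1711 bp (1204 to 4291 bp) and 96.5 (88.3 to 98.6). High-fold genes were 3 of 7 in the alpha and 5 of 7 in the beta ring.

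Among alpha ring genes, which form the gate of the barrel, Psma7 was the weakest. Its fold was 27.7 in replicate 1 and 13.2 in replicate 2, at percentiles of 58.9 and 62.1. Its domain was 3588 bp in replicate 1, joined from 4 peaks, and 1654 bp in replicate 2, a single peak, a mean of 2621 ± 1370 bp (SD, n = 2). Psma4 was next, with folds of 40.9 and 15.1 (percentiles 78.9 and 71.0). Psma3 had folds of 44.5 and 21.1 (percentiles 84.4 and 92.1). Psma2 was the strongest of the ring, with folds of 56.2 and 22.7 (percentiles 97.2 and 95.3) over 2353 and 2009 bp. The other alpha ring genes, Psma1, Psma5 and Psma6, lay between, at mean percentiles from 89.7 to 90.9. The windows of Psma2, Psma4 and Psma7 also hold another coding start. At Psma2 the summit lay 457 bp downstream of the start in replicate 1 but at -363 bp in replicate 2, towards Mrpl32.

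By the mean of the replicates, the beta ring held the 2 widest domains of the whole complex. Psmb1, a non-catalytic beta subunit gene at chr17:15475021-15499751, had 4487 bp in replicate 1 and 4095 bp in replicate 2, a mean of 4291 ± 277 bp (SD, n = 2). Its window also holds the start of Tbp, the TATA-binding protein gene. Psmb3 had 6171 bp in replicate 1 and 1864 bp in replicate 2. The first value came from joining the promoter peak of 2384 bp to a neighbouring upstream peak, and with joining over 3000 bp the width in replicate 2 was 5794 bp.

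The catalytic subunit genes had compact promoters. Psmb6 and Psmb7 were high-fold genes, a class that Psmb5 narrowly missed. Psmb5, which carries the chymotrypsin-like site, had the narrowest core domain, 1325 bp in replicate 1 and 1083 bp in replicate 2. Its folds were 47.6 and 19.6 (percentiles 88.7 and 87.8). The lowest folds of any high-fold gene were 47.7 in replicate 1 and 19.1 in replicate 2. Psmb5 thus fell short in replicate 1 only, by a narrow margin. Psmb6, with the caspase-like site, had 1958 and 1464 bp and folds of 53.6 and 24.4 (percentiles 95.4 and 97.5). Psmb7, with the trypsin-like site, had 1595 and 1383 bp and folds of 53.2 and 26.5 (percentiles 95.1 and 99.1). All 3 were above the median of marked genes in fold in both replicates and below it in width. The high-fold genes of the ring were Psmb6 and Psmb7 with 3 non-catalytic subunit genes. Of these, Psmb3 had folds of 64.6 and 24.3, Psmb2 of 57.2 and 26.6, and Psmb4 of 55.9 and 23.2 over a narrow domain of 1623 and 1564 bp.

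**Figure D4:**
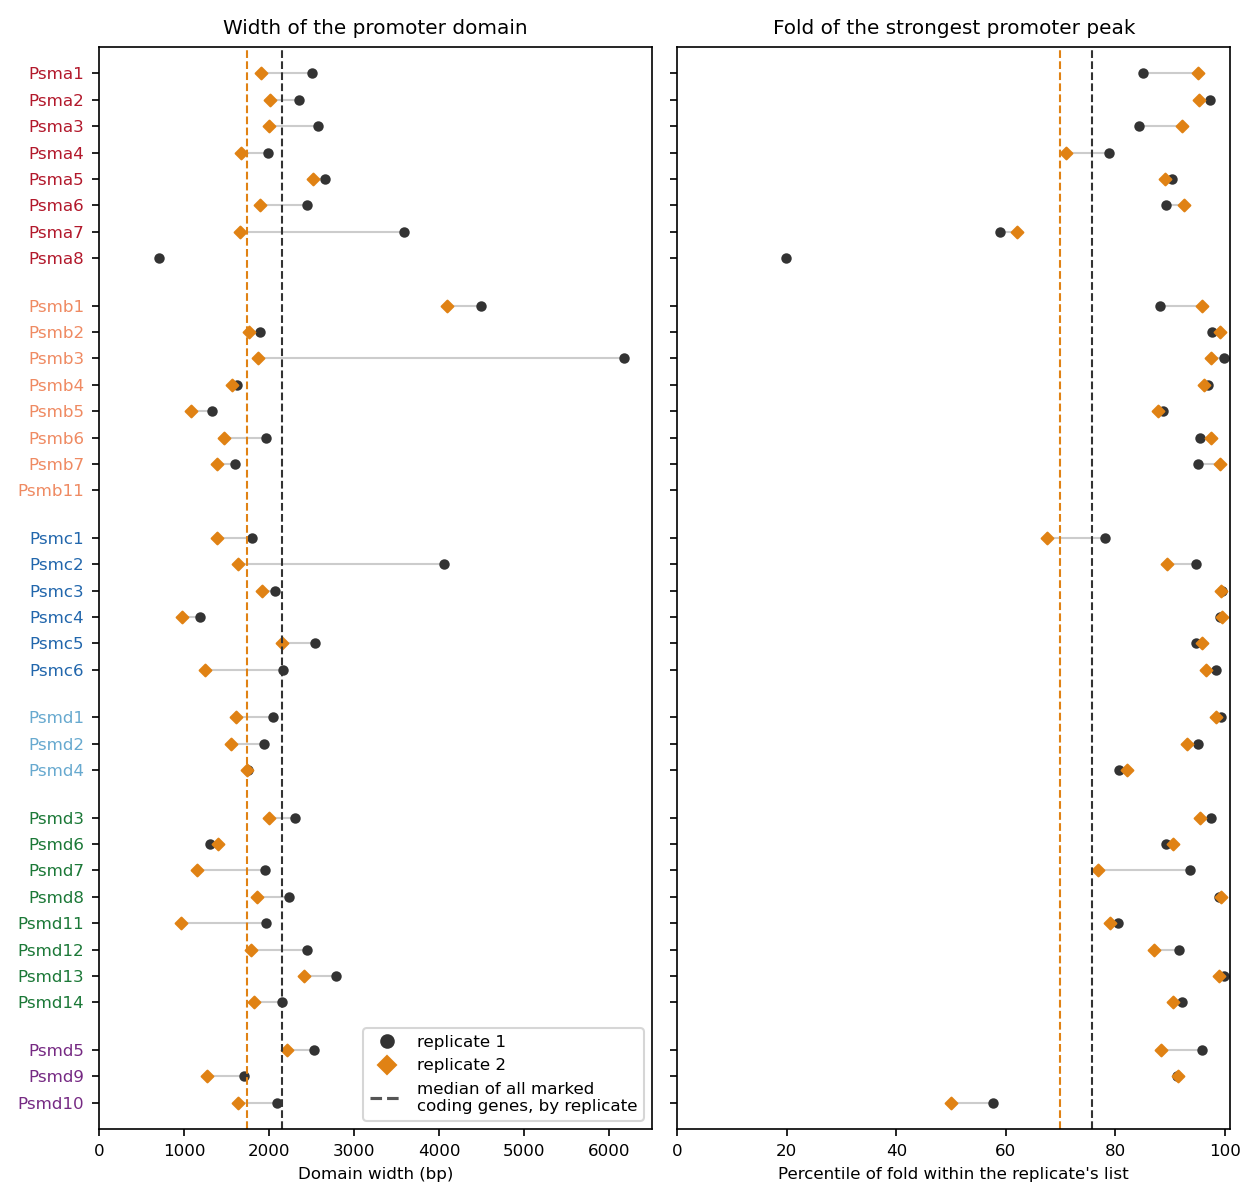
Domain width in bp (left) and percentile of the strongest peak's fold within its replicate's list (right) for each gene, with dark circles for replicate 1, orange diamonds for replicate 2, and dashed lines at the medians of all marked coding genes (2149 and 1741 bp, percentiles of 75.8 and 69.9). Most points on the right lie beyond both lines, whereas those on the left fall on either side of them. Psmb3, Psmc2 and Psma7 have the longest connecting lines on the left.

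The base of the regulatory particle held several of the strongest promoters, and the narrowest by the mean of the replicates. The 6 ATPase genes had a median width of 1848 bp and a median percentile of fold of 96.4, and 5 of 6 were high-fold genes. Psmc2 was among the 5 only through a peak at the edge of its window, described below. Psmc4, at chr7:28041707-28050101 in mm10 (ENSMUSG00000030603.16), had 1185 bp in replicate 1 and 979 bp in replicate 2, a mean of 1082 ± 146 bp (SD, n = 2), with folds of 60.7 and 27.7 (percentiles 99.1 and 99.5). In replicate 2 the domain of Psmd11, at 970 bp, was narrower. The width of Psmc4 was at the percentile of 8.81 among marked genes in replicate 1 and of 17.6 in replicate 2. Psmc3 had folds of 62.4 and 27.0 (percentiles 99.5 and 99.3) and a wider domain of 2069 and 1912 bp. Psmc1 was the exception among the ATPases, with folds of 40.4 and 14.4 (percentiles 78.1 and 67.5).

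At Psmc2 the strongest peak lay inside the gene and apart from the start. In replicate 1 peaks ran from -1337 to -215 bp, from -20 to 427 bp and from 942 to 2718 bp of the 5′ end, with folds of 36.1, 7.28 and 52.9. In replicate 2 there were peaks from -1247 to -211 bp and from 991 to 2624 bp, and the start itself was in none. Joined, the domain was 4056 bp in replicate 1, and since the gap in replicate 2 was over 1000 bp it was 1634 bp there (2845 ± 1710 bp, SD, n = 2). Only the edge of the peak inside the gene met the 1000 bp window. The other peaks of Psmc2 had folds of at most 36.1 in replicate 1 and 13.3 in replicate 2. High-fold genes had at least 47.7 and 19.1, so Psmc2 was a high-fold gene only through that edge. The non-ATPase base genes were uniform in width. Psmd1 and Psmd2, scaffold subunits, had 2043 and 1607 bp and 1944 and 1554 bp in replicates 1 and 2, and Psmd4, a ubiquitin receptor, had 1748 and 1737 bp. Of the remaining ATPase genes, Psmc5 had 2537 and 2155 bp and Psmc6 had 2165 and 1246 bp.

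The lid genes ranged from strong to moderate. Psmd13 had the highest fold of any member in replicate 1, 65.0, and 26.1 in replicate 2 (percentiles 99.9 and 98.9), over a domain of 2782 and 2412 bp. Psmd8 had percentiles of 98.9 and 99.3, and the scaffold genes Psmd3 and Psmd12 had 97.5 and 95.5, and 91.6 and 87.0. Psmd14, which encodes the enzyme that cuts off the ubiquitin chain, had folds of 50.3 and 20.5 (percentiles 92.1 and 90.5) over 2151 and 1820 bp. Psmd11 was the weakest lid gene by mean percentile, with folds of 41.8 and 17.1 (percentiles 80.5 and 79.1) over 1959 and 970 bp. Psmd6, the narrowest lid gene in replicate 1 and by the mean but not in replicate 2, had folds of 48.0 and 20.5. Psmd7, which pairs with Psmd14 in the lid, differed most between replicates in rank, at percentiles of 93.7 and 76.8. In replicate 2 its peak began 293 bp downstream of the start.

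The base assembly chaperone genes are named with the subunits but are not part of the finished particle. Psmd10, also called gankyrin, was the weakest marked member, with folds of 26.9 and 10.6 (percentiles 57.7 and 49.9) over 2088 and 1636 bp. It is the only member on the X chromosome. Psmd5 had folds of 54.2 and 19.7 and Psmd9 of 49.5 and 20.9, and both were high-fold genes. Their domains were 2524 and 2212 bp for Psmd5 and 1699 and 1274 bp for Psmd9.

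By particle, core genes had a median width of 2176.5 bp (n = 14) and regulatory genes of 1843.5 bp (n = 20), a difference of 333 bp. Per replicate the medians were 2399.5 and 1816.5 bp for the core and 2078.5 and 1635 bp for the regulatory particle, and the ranges overlapped (1204 to 4291 bp and 1082 to 2845 bp). The difference was 24.5 bp with the authors' pooled list and 94.5 bp with no joining of peaks. The pooled list also marked Psma8, a core gene that is not among the 14. Median percentiles of fold were 91.5 and 92.1 for core and regulatory genes as means of the replicates. They changed order between replicates: 89.8 and 94.7 in replicate 1, and 95.2 and 90.9 in replicate 2. High-fold genes were 8 of 14 in the core and 15 of 20 in the regulatory particle. Without the 3 chaperones the regulatory particle had 13 of 17 (76.5%).

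The domain was a single peak in both replicates at 23 of 34 members (67.6%, against 46.8% of marked genes). A domain of at least 2 peaks in both replicates was seen at 2 of 34 members (5.88%), against 29.0% of marked genes and 42.5% of those in the highest tertile by CpG ratio. These were Psma6, with 2446 and 1898 bp in replicates 1 and 2, and Psmd14. The remaining members had 2 or more peaks in 1 replicate only.

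The peak lay mostly inside the gene. The summit of the strongest peak was downstream of the nearest annotated start in both replicates at 29 of 34 members (85.3%, against 71.5%), by a median of 324 bp in replicate 1 and 345 bp in replicate 2. For all marked genes the medians were 244 and 250 bp. Among members with a window of their own, the domain held the 5′ end at 21 of 24 in replicate 1 and reached a median of 633 bp upstream and 1309 bp downstream. All marked genes with a window of their own had 633 and 1381 bp, so the shape was close to the general one. In replicate 2, 18 such members had 515.5 bp upstream and 1175.5 bp downstream, and all such genes had 562 and 1194 bp.

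Another coding gene started within the window of 10 of the 34 marked members (29.4%, against 25.1%), always on the opposite strand, and a peak there cannot be assigned to either gene. Of the core, Psma2 shared with Mrpl32, a mitochondrial ribosome gene, at 75 bp, Psma4 with AY074887 at 106 bp, Psma7 with Ss18l1 at 76 bp and Psmb1 with Tbp at 137 bp. Of the regulatory particle, Psmc2 shared with Dnajc2, a ribosome-associated chaperone gene, at 32 bp, and Psmc5 with Ftsj3, a ribosome assembly gene, at 75 bp. Psmd1 shared with the serotonin receptor gene Htr2b at 145 bp, Psmd13 with the mitochondrial deacetylase gene Sirt3 at 99 bp, Psmd10 with the autophagy protease gene Atg4a at 179 bp, and Psmd5 with Cutal at 450 bp. Members that shared a window had a median width of 2357 bp, and the 24 with a window of their own had 1745.75 bp. All marked genes showed a like gap, 2299.75 against 1812.5 bp. In fold, 17 of the 24 with a window of their own were high-fold genes (70.8%), where 16.8% of all marked genes with their own window were. Only coding starts were counted as sharing. The windows of Psma5, Psmc3 and Psmd3, all high-fold genes counted as having their own window, hold a noncoding start, as does that of Psmd13.

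For 3 members the marked start was far inside the gene record. The domain lay 13780 bp beyond the 5′ end of Psma6 in replicate 1 and 13954 bp beyond it in replicate 2, 2983 and 3117 bp beyond that of Psmd5, and 58231 and 58414 bp beyond that of Psmd9. With the 5′ end as the only start, these 3 genes were not marked in both replicates. Members had 1 to 13 annotated starts. Of the 177 starts of the 34 marked members, 131 were marked in both replicates (74.0%, against 65.2% of the starts of all marked genes). Every start was marked at 11 of 34 (32.4%, against 35.7%). The genes are scattered over the genome. Chromosome 11 held the most, 6, and apart from Psmb5 and Psmb11 the closest pair was Psmb4 and Psmd4, 155653 bp apart on chromosome 3.

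Other genes of the pathway were marked too. Of 37 listed, 36 matched a protein-coding gene (Paaf1 did not), and 36 of 36 were marked in both replicates. The share was 49.5% of all coding genes and 80.5% of those in the highest tertile by CpG ratio. Their median domains of 2278.5 and 1925 bp and median percentiles of fold of 88.1 and 83.7 lay beside 2119.5 and 1703 bp and 94.2 and 92.8 for the members. High-fold genes were 14 of the 36, where 21.2% of all marked genes and 67.6% of the marked members were. The 3 widest by the mean of the replicates were in the list of transcriptional control. Nfe2l2, the oxidative stress factor, had 5571 bp in replicate 1 and 4937 bp in replicate 2, Nfya, a subunit of NF-Y, had 3941 and 3423 bp, and Ddi2, the protease that activates Nfe2l1, had 3590 and 3078 bp. Nfe2l1 itself had 3414 and 2892 bp, with folds at percentiles of 86.0 and 75.1.

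The interferon-inducible catalytic subunits, which replace their constitutive counterparts in the immunoproteasome, were all marked without a stimulus. Psmb8 had 2310 and 2016 bp with percentiles of fold of 89.7 and 85.4, where its counterpart Psmb5 had 1325 and 1083 bp and 88.7 and 87.8. Psmb9, which shares its window with the peptide transporter gene Tap1, had 3469 and 2483 bp and percentiles of 98.2 and 98.1, beside 1958 and 1464 bp at its counterpart Psmb6. Psmb10 had 1889 and 1749 bp and percentiles of 99.3 and 96.4, beside 1595 and 1383 bp at its counterpart Psmb7. Each of the 3 was thus wider than its counterpart in both replicates. The 5 core assembly chaperone genes Psmg1 to Psmg4 and Pomp had median domains of 2018 and 1962 bp, and the 5 genes of core activators and the inhibitor Psmf1 had 2031 and 1883 bp.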

How the data were processed

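H3K4me3 was mapped in 2 replicates of unstimulated macrophages. The deposited readme texts say that the authors derived pseudoreplicated peaks from each replicate's alignments on mm10 and from both sets jointly (the pooled list), besides a list of replicated peaks. The sources used here name neither an aligner nor a peak caller. Each peak in the deposited lists carries the authors' fold (a ratio), whose reference is not stated, and a −log10 p. No read counts were used, so the depth is unknown.

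Peak positions were checked against the chromosome lengths of GRCm38.p6 (the mm10 assembly), and 0 ends exceeded them. Genes and starts came from GENCODE M21 on 21 chromosomes. Overlaps needed 1 bp. Widths, folds and motifs were computed with Python 3.11.15, pandas 2.3.3 and pysam 0.24.0, and the peak lookup was tested on simulated peaks. The members, the lists and the measures were chosen with earlier results of these data known. Named genes were all members unmarked in a replicate, those sharing a window or with a domain of 2 or more peaks in both replicates, the 3 widest, narrowest, strongest and weakest of each particle, and the 3 widest of the pathway. Others were named after their values were seen: the catalytic subunits and their inducible counterparts, and genes given as examples of a class. Alternatives changed the window, starts, joining, overlap, list and threshold, or left out a replicate.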

Additional observations from a re-analysis of the deposited data

How the results depend on the processing

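The number of members marked in both replicates was 34 as reported and between 31 and 35 under the alternatives: windows of 500 and 2500 bp, 1 start per gene, the authors' pooled and replicated lists, the 15000 peaks of highest −log10 p, an overlap of 200 bp, and either replicate alone. The median width of marked members, 1923.8 bp, stayed within the spread between replicates under each alternative tried. The median percentile of fold, 92.1, was 93.8 with the pooled list, 93.2 with the replicated list, 90.3 with the 15000 peaks and 91.3 without members sharing a window, and 92.8 to 93.7 with a replicate left out. The difference in width between core and regulatory particle, 333 bp, was 24.5 bp with the pooled list, 129.5 bp with the replicated list, 71.5 bp with the 15000 peaks and 94.5 bp with no joining, and 181.5 to 274.5 bp with a replicate left out. Psma8, a core gene, was also marked with the pooled list and with replicate 2 left out. The genes compared there were therefore not those of the main values. With replicate 2 left out, the medians of fold and width thus differ from those given above for replicate 1. The cause of the changes in the difference was not tested. The count of members above the percentile of 75 of fold, 23, was 11 above the percentile of 90, which holds fewer genes by construction, 23 ranked by −log10 p, 17 of the 24 members with a window of their own, and 24 to 27 with a replicate left out. These alternatives for the count of 23 were chosen after seeing the data. The window and the overlap were not varied for this count, in which the place of Psmc2 depends on the window edge. No paired analysis was possible because there is 1 group. Depth is unknown, so the absence of a Psma8 peak in replicate 2 does not show that the mark is absent.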
